A study of Mus musculus with 22 samples.

Results

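The chemokine ligands of the CC, CXC, CX3C and XC families were followed as a group of 33 genes, chosen by gene symbol among the 41388 genes counted in each library. A ligand entered the tests when it exceeded 1 CPM (its count scaled to the total of the library) in at least 2 of the 22 libraries, which 31 of the 33 ligands and 15018 genes in all did. The ligands that did not were Ccl28, a chemokine of mucosal epithelia, with 38 counts over all libraries, and Cxcl15, which is best known from the lung, with 11.

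Chemokines are small secreted proteins that bind G protein-coupled receptors on leukocytes and direct their migration along concentration gradients. Homeostatic ligands such as Cxcl12, Cxcl13 and Ccl19 place leukocytes in bone marrow and lymphoid tissue, whereas inflammatory ligands such as Ccl2, Cxcl1 and Cxcl10 are induced during tissue damage and infection. In tumors, infiltrating myeloid cells and fibroblasts are both known to make them.

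The libraries were made from stroma of mammary tumors grown in C57BL/6 mice at postnatal day 56, and the GFP+ tumor cells had been gated out before sorting. All mice carried Osx-cre, in which a tetracycline-responsive Osterix (Sp7) promoter drives Cre, and the Ai9 reporter, so that TdTomato (TdTOSX) marks cells in which Cre was once active and their progeny. Wild type mice carried these alleles alone, and Cdh2-cKO mice also carried a conditional deletion of Cdh2, the gene of N-cadherin. The paper states that Osx-cre reporter mice fed doxycycline until weaning, which suppresses Cre, served in all studies after its first experiments. Its account of the sequencing does not repeat the diet. Each genotype had 2 libraries of TdTOSX single positive cells (TdTOSX SP, without CD45), and 3 each of double positive (DP), CD45 single positive (CD45 SP) and double negative (DN) cells. The 10 libraries of TdTOSX SP and DN cells are called CD45- below and the 12 libraries of DP and CD45 SP cells CD45+. The labels give 4 wild type and 6 Cdh2-cKO mice as inoculated but tie no library to an animal, and they place the tumors both orthotopically and subcutaneously, so that p-values measure the spread between these libraries.

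Between 16594228 and 26784003 reads were counted on genes per library, with a median of 18977040. Sp7 itself had 3 counts over all libraries. Cdh2 was not lower in the CD45- libraries labelled Cdh2-cKO: its normalized CPM was 8.95 and 4.89 in wild type TdTOSX SP cells against 16.8 and 12.5 in the libraries labelled Cdh2-cKO, and 6.17, 7.47 and 4.51 in wild type DN cells against 13.1, 19.1 and 14.6. The labels do not say which part of the gene is deleted. Ptprc, the gene of CD45, was at 465 to 1690 CPM in CD45+ libraries and at 2.4 to 337 in CD45- libraries. Its level among the latter was 2.4 and 76.6 in wild type TdTOSX SP, 4.57, 38.6 and 337 in wild type DN, 160 and 86.0 in Cdh2-cKO TdTOSX SP and 9.8, 16.3 and 11.1 in Cdh2-cKO DN cells. Transcripts of leukocytes were thus present in all sorted CD45- libraries, least in wild type replicate 1 of both populations and most in wild type DN replicate 3. The summed level of 5 fibroblast markers was 3230 to 43400 CPM in CD45- and 45.7 to 159 CPM in CD45+ libraries. Wild type CD45 SP replicate 2 stood apart from the other CD45+ libraries, with summed B, T and NK cell markers of 3200, 1430 and 613 CPM and the lowest summed macrophage markers among them, at 3330 CPM. The summed epithelial markers were 504 to 2060 CPM in DN cells and at most 907 CPM in every other population. This list was mixed, since its member Cdh1 was at 82.6 to 354 CPM in CD45+ and at 0.8 to 117 CPM in CD45- libraries. In 3 libraries, wild type DN replicate 1, Cdh2-cKO TdTOSX SP replicate 2 and Cdh2-cKO DN replicate 2, both Xist and the Y-linked Ddx3y exceeded 30 CPM, a pair of genes chosen after the data were seen. In 5 others, wild type TdTOSX SP 1, DP 1, CD45 SP 1 and CD45 SP 2 and Cdh2-cKO DP 2, Ddx3y was at 54.2 to 171 CPM and Xist at 3.24 to 11.3 CPM, and in the remaining 14 Ddx3y was below 1 CPM. Sex-linked transcripts thus differed between libraries of the same group, and the part of sex in the comparisons was not tested.

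To compare ligands with each other, their normalized CPM were divided by exon length in kilobases (RPKM scale). On this scale the monocyte attractants Ccl2, Ccl7 and Ccl12, which are neighbours on chromosome 11 and ligands of Ccr2, held the first 3 places in all populations but DN. The 3 highest medians were Ccl7, Ccl2 and Ccl12 in TdTOSX SP cells (971, 595 and 430 RPKM, n = 4), and Ccl12, Ccl2 and Ccl7 in CD45 SP cells (3350, 3070 and 3050 RPKM, n = 6). In DP cells they were Ccl12, Ccl7 and Ccl2 (2300, 2300 and 2160 RPKM, n = 6). In DN cells the neutrophil attractant Cxcl1 took the third place (Ccl2 539, Ccl7 530 and Cxcl1 234 RPKM, n = 6). The ranges of these ligands overlapped within each population, and Ccl2 alone ran from 173 to 1960 RPKM over the DN libraries.

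**Figure D1:**
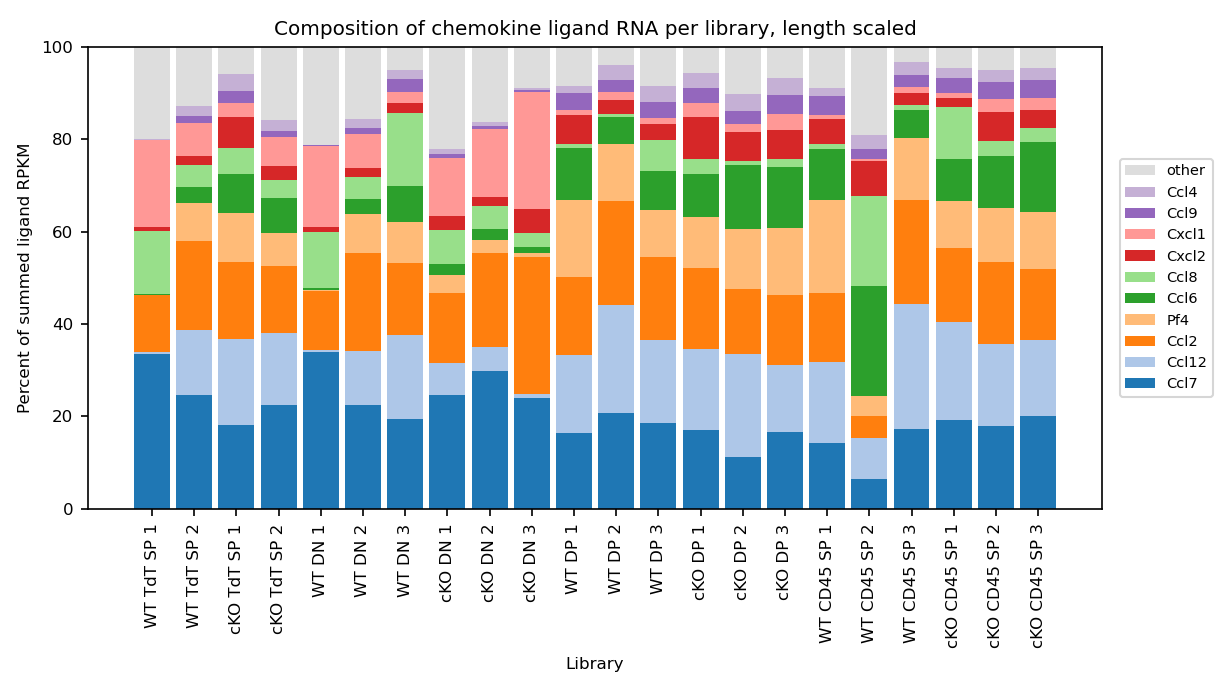
Share of each ligand in the summed RPKM of all 33 ligands, with 1 stacked bar per library (percent, from 0 to 100); the 10 ligands with the highest median share are coloured and all others are grey. Ccl2, Ccl7 and Ccl12 together made up 20 to 66.8% in CD45+ libraries and 46.2 to 58.0% in CD45- libraries.

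All ligands together summed to 7900 to 22900 CPM in CD45+ libraries (median 14500, n = 12) and to 1140 to 11500 CPM in CD45- libraries (median 2810, n = 10). The plot of ligand composition shows that the 3 monocyte attractants held a similar share of ligand RNA in both, with medians of 52.0% in CD45+ and 53.3% in CD45- libraries. Ccl11, Cxcl13, Cxcl12, Cxcl5, Cx3cl1 and Ccl19 held 0.77 to 16.9% in CD45- libraries and at most 0.0653% in CD45+ libraries. These were the ligands whose CD45+ libraries all lay below their CD45- libraries, so their lower share in CD45+ libraries followed from that choice. Cxcl1 held 2.33 to 25.4% in CD45- and 0.358 to 3.48% in CD45+ libraries. These are shares of RNA in sorted bulk samples, in which fewer cells of a type and less RNA per cell cannot be told apart.

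To find the source of each ligand, both CD45+ populations were compared with both CD45- populations over the 22 libraries with edgeR's quasi-likelihood test and Benjamini-Hochberg adjustment over all genes. At an adjusted p of at most 0.05, 20 of the 31 tested ligands were higher in CD45+ cells and 8 were lower, beside 31.2% and 32.1% of all genes (63.3% in either direction). The ligands' median log2 fold change was 2.31, against 0.03 over all tested genes. The 3 ligands without a call were Cxcl1, Cxcl9 and Ccl8. Left out 1 at a time, the libraries changed 1 of these 28 calls: Ccl25 was no longer called in 4 of 22 fits, with an adjusted p of at most 0.0849. Between the genotypes, wild type libraries alone gave 16 calls among 31 ligands (8 higher and 8 lower; 15.9% and 22.3% of all genes), and Cdh2-cKO libraries alone gave 26 among 29 (20 higher and 6 lower; 26.4% and 31.9%).

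**Figure D2:**
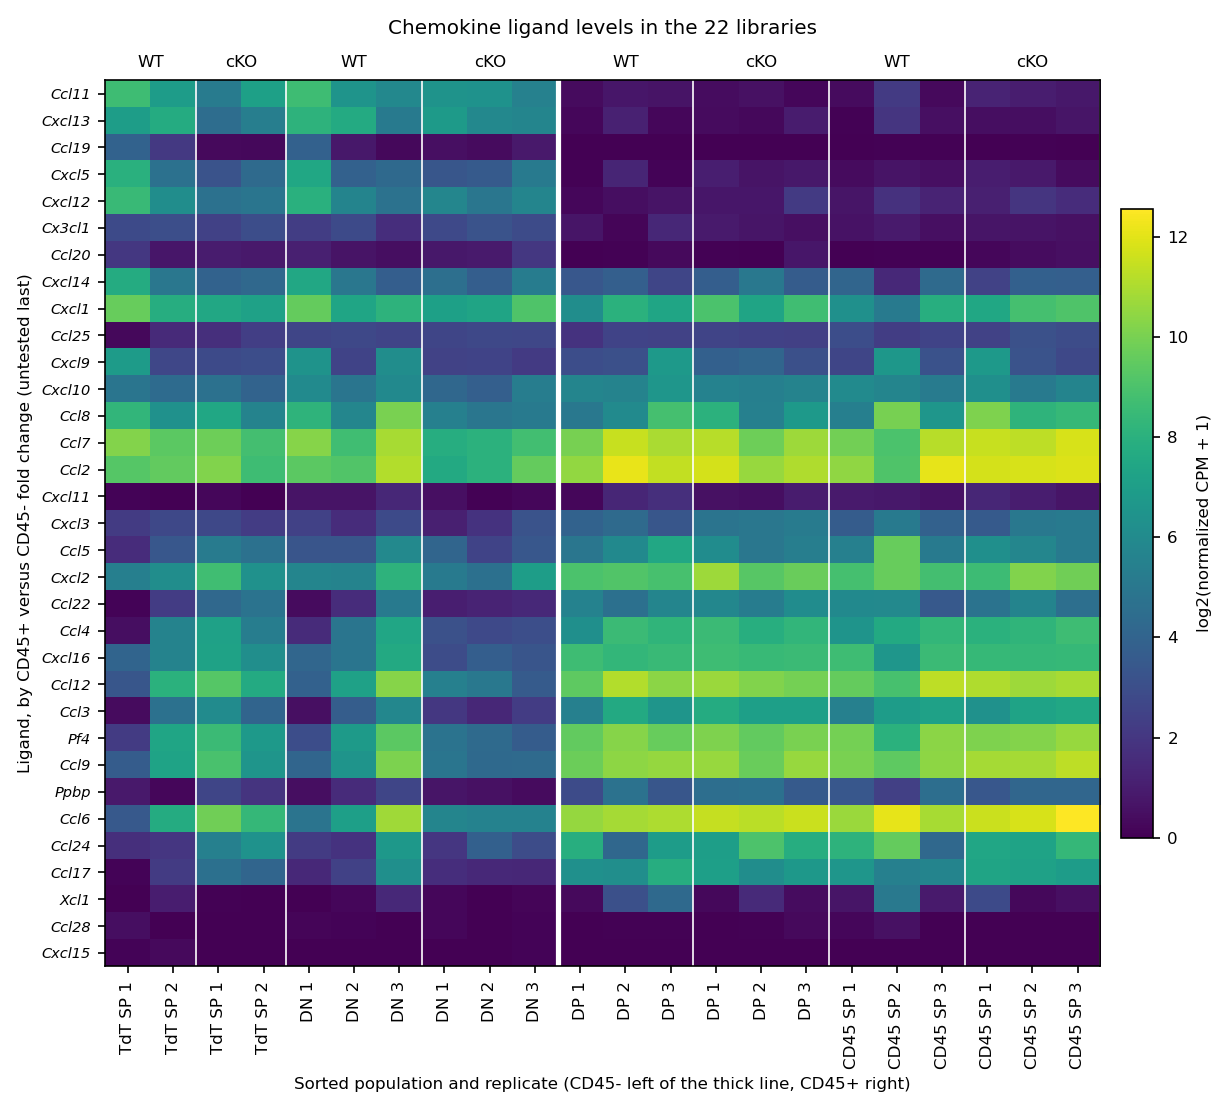
Normalized CPM of the 33 ligands on a log2 scale (1 added to each value), with 1 column per library and 1 row per ligand; rows run from the lowest to the highest fold change of CD45+ over CD45- cells, with Ccl28 and Cxcl15, which were not tested, at the foot. The top rows (Ccl11, Cxcl13, Ccl19, Cxcl5, Cxcl12) are near 0 in all 12 CD45+ columns.

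The ligands lower in CD45+ cells were led by fibroblast and lymphoid stroma chemokines, as the heat map of levels shows. Cxcl12, which retains Cxcr4-bearing cells in marrow (ENSMUSG00000061353, GRCm38 chromosome 6, 117168535 to 117181367), was at 370 and 71.3 CPM in wild type TdTOSX SP cells, 252, 49.0 and 25.7 CPM in wild type DN cells, 24.9 and 28.1 CPM in Cdh2-cKO TdTOSX SP cells and 52.9, 30.0 and 51.0 CPM in Cdh2-cKO DN cells. In the CD45+ libraries it ranged from 0.172 to 3.44 CPM with a median of 0.946. Every CD45- library was above every CD45+ library, and wild type replicate 1 was the highest in both CD45- populations. The log2 fold change of CD45+ over CD45- was -5.96 ± 0.49 (SE, adjusted p = 1.44e-08).

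Ccl11, the eosinophil attractant eotaxin (ENSMUSG00000020676, chromosome 11, 82057823 to 82062955), was at 397 and 123 CPM in wild type TdTOSX SP, 403, 90.5 and 56.9 in wild type DN, 35.8 and 138 in Cdh2-cKO TdTOSX SP and 88.0, 83.2 and 45.6 in Cdh2-cKO DN cells. It did not exceed 3.41 CPM in any CD45+ library, and its log2 fold change was the largest of the group at -7.54 ± 0.54 (adjusted p = 2.92e-09). The highest CD45+ value was in the CD45 SP library that stood apart. Cxcl13, the B cell attractant of lymphoid follicles, was at 125 and 208 CPM in wild type TdTOSX SP, 279, 201 and 34.1 in wild type DN, 21.4 and 40.9 in Cdh2-cKO TdTOSX SP and 115, 56.3 and 51.1 in Cdh2-cKO DN cells. It did not exceed 2.87 CPM in CD45+ libraries (-7.24 ± 0.56, adjusted p = 7.52e-09), so that these libraries lay below every CD45- one.

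Cxcl5, a neutrophil attractant that binds Cxcr2, was at 250 and 24.7 CPM in wild type TdTOSX SP, 179, 13.8 and 18.9 in wild type DN, 8.35 and 19.2 in Cdh2-cKO TdTOSX SP and 9.24, 10.8 and 34.6 in Cdh2-cKO DN cells. It did not exceed 1.43 CPM in CD45+ libraries (-6.02 ± 0.62, adjusted p = 2.73e-07). Wild type replicate 1 was again far above the rest in both CD45- populations. Ccl19, the Ccr7 ligand of lymph node stroma, had 731 counts over the 10 CD45- libraries and 3 counts over the 12 CD45+ libraries (adjusted p = 3.41e-05). Most of its signal came from wild type replicate 1, with 14.5 CPM in TdTOSX SP and 13.7 CPM in DN cells, while no other library exceeded 3.18 CPM. The mouse genome holds near-identical copies of Ccl19, so a count of uniquely aligned reads is uncertain for it.

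The other 3 ligands with a lower call had smaller differences. Cx3cl1, a membrane-tethered chemokine, was at 2.15 to 8.31 CPM in CD45- and 0.114 to 1.67 CPM in CD45+ libraries, without overlap (-3.10 ± 0.32, adjusted p = 2.68e-07). Ccl20, the Ccr6 ligand, did not exceed 3.1 CPM anywhere (-3.07 ± 0.60, adjusted p = 0.00026). Cxcl14, an epithelial and fibroblast chemokine, was at 12.4 to 210 CPM in CD45- and 1.7 to 31.2 CPM in CD45+ libraries, which overlapped (-1.85 ± 0.48, adjusted p = 0.003). Wild type replicate 1 was at 210 CPM in TdTOSX SP and 187 CPM in DN cells, and no other CD45- library exceeded 37.6 CPM. By edgeR Cxcl14 was called in wild type libraries alone (-3.17 ± 0.85, adjusted p = 0.0174) but not in Cdh2-cKO libraries alone (-0.56 ± 0.37, adjusted p = 0.217). In 6 of the ligands (Ccl11, Cxcl13, Cxcl12, Cxcl5, Cx3cl1 and Ccl19) all CD45+ libraries were below all CD45- libraries, beside 11.3% of all genes.

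The 20 ligands higher in CD45+ cells included inflammatory CC ligands of macrophages, the Ccr4 ligands of dendritic cells and the platelet-named chemokines. Ccl6, a mouse Ccr1 ligand of myeloid cells (ENSMUSG00000018927, chromosome 11, 83587882 to 83593087), was at 1530 to 6040 CPM in CD45+ libraries (median 2640). In the CD45- libraries it was at 10.3 and 208 CPM in wild type TdTOSX SP, 27.8, 135 and 1730 in wild type DN, 914 and 331 in Cdh2-cKO TdTOSX SP and 51.9, 47.2 and 46.3 in Cdh2-cKO DN cells (3.68 ± 0.62, adjusted p = 6.38e-05). Over the CD45- libraries its order was that of Ptprc except among the Cdh2-cKO DN libraries, and only wild type DN replicate 3 reached into the CD45+ range.

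Ccl17, a Ccr4 ligand known from dendritic cells, was at 44.1 to 223 CPM in CD45+ libraries. It was at 0.1 and 3.47 CPM in wild type TdTOSX SP, 1.7, 4.3 and 74.9 in wild type DN, 23.6 and 15.9 in Cdh2-cKO TdTOSX SP and 2.16, 1.71 and 1.67 in Cdh2-cKO DN cells (3.99 ± 0.61, adjusted p = 2.34e-05). Again wild type DN replicate 3 alone overlapped with the CD45+ range. Ccl22, the other Ccr4 ligand, had a log2 fold change of 3.00 ± 0.63 (adjusted p = 0.000508), with medians of 47.8 CPM in CD45+ and 1.88 CPM in CD45- libraries.

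Ccl24, an eosinophil attractant of alternatively activated macrophages, was at 17.4 to 781 CPM in CD45+ libraries (median 200). It was at 2.2 and 3.03 CPM in wild type TdTOSX SP, 3.58, 2.61 and 102 in wild type DN, 43.3 and 84.2 in Cdh2-cKO TdTOSX SP and 2.93, 13.6 and 6.51 in Cdh2-cKO DN cells (3.98 ± 0.76, adjusted p = 0.000219). The ranges overlapped in 3 CD45- libraries, those with the highest Ptprc. Ccl11 and Ccl24, which both bind Ccr3, thus had opposite calls.

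Xcl1, a lymphocyte-derived attractant of cross-presenting dendritic cells, had the largest log2 fold change upwards but the least even one (4.24 ± 1.13, adjusted p = 0.0033). It reached 33 CPM in wild type CD45 SP replicate 2, 18.8 CPM in wild type DP replicate 3, 7.31 CPM in wild type DP replicate 2 and 6.08 CPM in Cdh2-cKO CD45 SP replicate 1, and the median of all CD45+ libraries was 0.762 CPM. These 4 libraries also had the highest summed T cell markers (1430, 306, 135 and 47.0 CPM) and NK cell markers (613, 61.7, 19.5 and 27.8 CPM). Their part in the result was not tested. In CD45- libraries Xcl1 did not exceed 1.76 CPM.

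Pf4 and Ppbp, which bear the names of platelet proteins, were both higher in CD45+ cells. Ppbp was at 4.26 to 26.0 CPM in CD45+ libraries (median 13.6) and at 0.8 and 0.183 CPM in wild type TdTOSX SP, 0.377, 1.94 and 5.07 in wild type DN, 5.24 and 2.75 in Cdh2-cKO TdTOSX SP and 0.664, 0.503 and 0.3 in Cdh2-cKO DN cells (3.56 ± 0.46, adjusted p = 4.16e-06). Pf4 was far more abundant, at 258 to 1590 CPM in CD45+ libraries (3.32 ± 0.66, adjusted p = 0.000312). The 5 platelet and megakaryocyte markers summed to at most 2.01 CPM in CD45+ libraries and at most 8.45 CPM in any library, and only 2 of the 5 passed the filter. The part of platelets in the levels of Pf4 and Ppbp was not tested.

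The remaining ligands higher in CD45+ cells spanned a range from Ccl9 (3.51 ± 0.61) to Ccl25 (0.66 ± 0.25). The call of Ccl25 did not separate the gates, with medians of 4.7 CPM in CD45+ and 5.0 CPM in CD45- libraries. Within the CD45- libraries it was at 4.9 to 5.69 CPM in DN and 0.2 to 4.1 CPM in TdTOSX SP cells. In neither genotype alone was it called by edgeR (adjusted p of 0.126 in wild type and 0.228 in Cdh2-cKO). Ccl3, Ccl4 and Ccl5, inflammatory attractants of monocytes and T cells, had log2 fold changes of 3.24 ± 0.68, 3.05 ± 0.68 and 2.62 ± 0.59, and Cxcl16, a scavenger receptor and Cxcr6 ligand, of 3.08 ± 0.41. Ccl5, made by T and NK cells as well as macrophages, was highest at 803 CPM in the CD45 SP library that stood apart, followed by 183 CPM in wild type DP replicate 3. Of the interferon-inducible Cxcr3 ligands, Cxcl11 (2.31 ± 0.56) and Cxcl10 (0.95 ± 0.22) were called and Cxcl9 was not (0.80 ± 0.73, adjusted p = 0.355). The gene annotation lists Cxcl11 as a polymorphic pseudogene. It had 269 counts over all libraries and at most 2.19 CPM in CD45+ and 1.6 CPM in CD45- libraries.

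Cxcl9 was high in some libraries of either gate. It was above 60 CPM in 6 libraries, wild type TdTOSX SP replicate 1 (116 CPM), wild type DN replicates 1 and 3 (85.1 and 69.8), wild type DP replicate 3 (111), wild type CD45 SP replicate 2 (99.5) and Cdh2-cKO CD45 SP replicate 1 (111), and it was at most 16.2 CPM in all others. Ccl8, a neighbour of Ccl12 that binds Ccr8 in the mouse, was also spread widely, at 31.9 to 1110 CPM in CD45+ and 29.2 to 1030 CPM in CD45- libraries (1.0 ± 0.64, adjusted p = 0.182). The CD45+ and CD45- ranges of both ligands overlapped. In Cdh2-cKO libraries alone edgeR called both higher in CD45+ cells, Ccl8 at 2.14 ± 0.55 (adjusted p = 0.00512) and Cxcl9 at 2.12 ± 0.69 (adjusted p = 0.0192). In wild type libraries alone neither was called (-0.15 ± 1.04 for Ccl8 and -0.52 ± 1.16 for Cxcl9).

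Over all libraries the monocyte attractants were higher in CD45+ cells, with Ccl2 and Ccl7 at smaller log2 fold changes than Ptprc (3.59 ± 0.63), a gap that was not tested. In wild type libraries alone, Ccl2 (1.49 ± 0.61), Ccl7 (0.59 ± 0.52) and Ccl12 (2.42 ± 1.14) were not called (edgeR adjusted p of 0.0772, 0.394 and 0.118). In Cdh2-cKO libraries alone all of them were called (2.34 ± 0.42, 2.25 ± 0.31 and 3.83 ± 0.4). Ccl2 was at 612 and 743 CPM in wild type TdTOSX SP, 665, 562 and 2230 in wild type DN, 1160 and 402 in Cdh2-cKO TdTOSX SP and 196, 264 and 768 in Cdh2-cKO DN cells, against 542 to 4470 CPM in CD45+ libraries (1.93 ± 0.40, adjusted p = 0.000396). Ccl7 was at 1180 and 665 CPM in wild type TdTOSX SP, 1240, 415 and 1960 in wild type DN, 892 and 440 in Cdh2-cKO TdTOSX SP and 227, 272 and 434 in Cdh2-cKO DN cells, against 519 to 3560 CPM (1.44 ± 0.32, adjusted p = 0.000874). The CD45+ and CD45- ranges of both overlapped. Ccl12 was at 9.3 and 255 CPM in wild type TdTOSX SP, 13.7, 145 and 1230 in wild type DN, 606 and 207 in Cdh2-cKO TdTOSX SP and 43.0, 31.9 and 11.2 in Cdh2-cKO DN cells, against 477 to 2500 CPM (3.13 ± 0.67, adjusted p = 0.000554). In CD45+ libraries the RPKM ratio of Ccl7 to Ccl12 was 0.508 to 1.24, and in CD45- libraries it ran from 0.987 to 85.1 and was highest in wild type TdTOSX SP replicate 1 (85.1), wild type DN replicate 1 (60.7) and Cdh2-cKO DN replicate 3 (26.0).

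Cxcl1, Cxcl2 and Cxcl3 are close relatives on chromosome 5 that attract neutrophils through Cxcr2, and their CD45 calls were not alike. Cxcl1 was at 790 and 229 CPM in wild type TdTOSX SP, 765, 165 and 280 in wild type DN, 181 and 145 in Cdh2-cKO TdTOSX SP and 138, 160 and 548 in Cdh2-cKO DN cells, against 34.3 to 540 CPM (median 208) in CD45+ libraries. Its groups overlapped and it was not called (-0.44 ± 0.40, adjusted p = 0.354). Cxcl2 was at 24.2 to 422 CPM in CD45- and 386 to 1660 CPM in CD45+ libraries (2.80 ± 0.43, adjusted p = 2.53e-05). Cxcl3 was at 1.16 to 8.22 CPM in CD45- and 9.23 to 36.4 CPM in CD45+ libraries (2.33 ± 0.34, adjusted p = 1.64e-05). Cxcl3 was the only ligand of the 31 whose CD45+ libraries were all above its CD45- libraries, as were 3.28% of all genes. The RPKM ratio of Cxcl1 to Cxcl2 was 0.0474 to 0.658 in CD45+ libraries (median 0.415) and 0.474 to 21.2 in CD45- libraries (median 4.08).

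The promoters of these 3 genes are shown because these neighbours share a sequence motif but not their CD45 call. Whether their CD45 effects differ from each other was not tested. RefSeq promoters (GRCm38.p6) were found for 24 of the 33 ligands, and a window of 240 bases that ends 10 bases before the start site was searched on both strands. Of the NF-kappaB motif only the form GGGA, then any base, then TTTCC was searched, in capitals in the windows below. This form was found in 116 of 32851 promoters (0.353%) and, among the ligands with a promoter, in Cxcl1, Cxcl2 and Cxcl3 alone. All 3 lie on the plus strand, and the windows span chr5:90890995-90891234 for Cxcl1, chr5:90903649-90903888 for Cxcl2 and chr5:90785851-90786090 for Cxcl3.
Cxcl1: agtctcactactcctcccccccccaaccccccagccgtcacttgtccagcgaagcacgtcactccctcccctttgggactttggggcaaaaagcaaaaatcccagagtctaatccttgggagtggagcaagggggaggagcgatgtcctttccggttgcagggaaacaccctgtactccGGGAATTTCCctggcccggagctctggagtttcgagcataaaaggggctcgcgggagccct
Cxcl2: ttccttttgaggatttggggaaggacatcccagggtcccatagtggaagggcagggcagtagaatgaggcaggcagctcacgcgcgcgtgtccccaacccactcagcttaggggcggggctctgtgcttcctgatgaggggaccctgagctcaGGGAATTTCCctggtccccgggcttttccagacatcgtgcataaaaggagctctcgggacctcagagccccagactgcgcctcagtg
Cxcl3: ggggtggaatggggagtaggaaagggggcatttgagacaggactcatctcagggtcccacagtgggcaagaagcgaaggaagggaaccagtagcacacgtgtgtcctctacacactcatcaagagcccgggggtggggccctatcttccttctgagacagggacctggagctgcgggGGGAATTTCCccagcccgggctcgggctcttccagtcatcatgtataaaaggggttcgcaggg
The match read GGGAATTTCC in all 3 and began 71, 97 and 73 bases before the start of Cxcl1, Cxcl2 and Cxcl3. Other motifs were met at a range of frequencies: the interferon-stimulated response element, a pair of GAAA with 2 bases between, in Ccl19, Cxcl10 and Cxcl14 (2.87% of all promoters), the STAT motif TTCNNNGAA in Ccl17 and Cxcl14 (6.77%), the AP-1 motif TGANTCA in Ccl9, Cxcl10 and Ppbp (6.58%) and TATAAA in 9 ligands (12.1%). Overlaps between motifs were not examined, and a match is a description of sequence.

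**Figure D3:**
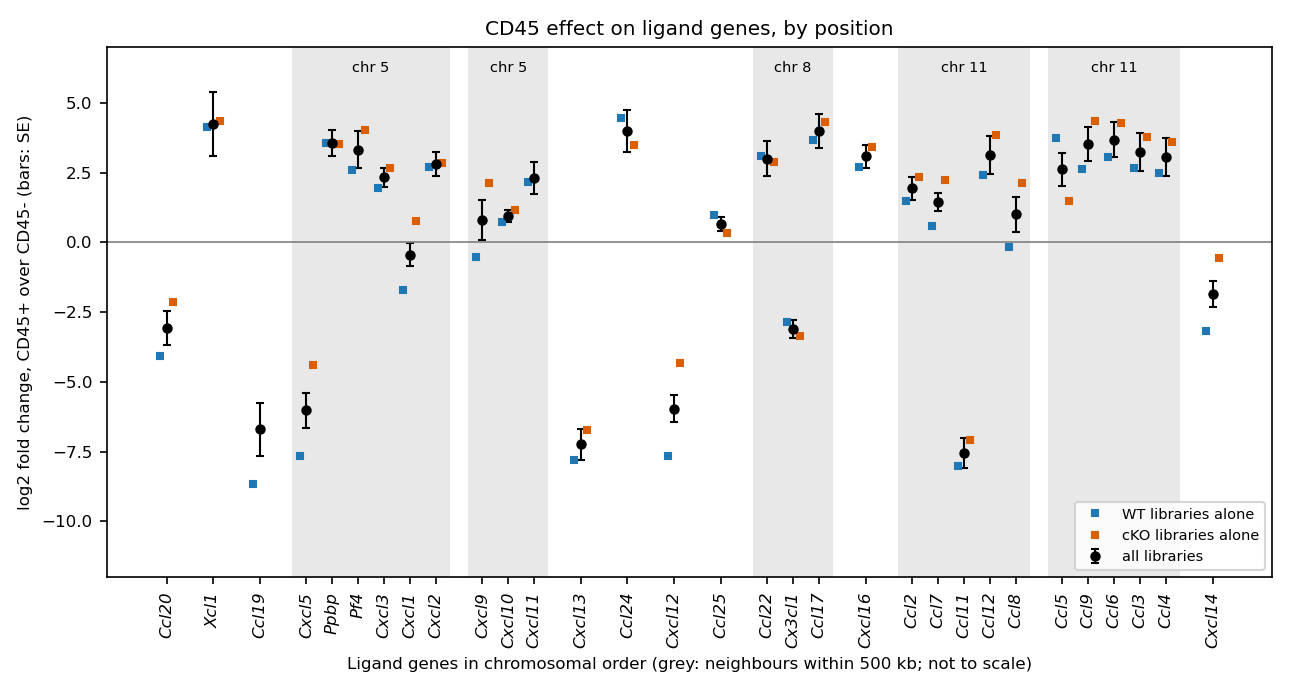
Log2 fold change of CD45+ over CD45- cells for the 31 tested ligands in chromosomal order, with grey bands around neighbours within 500 kb (distances not to scale); black points are all libraries with SE bars, and squares are the wild type (blue) and Cdh2-cKO (orange) libraries alone. Ccl11 lies at -7.54 among neighbours at 1.0 to 3.13, and Cx3cl1 at -3.10 between Ccl22 (3.00) and Ccl17 (3.99).

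Ligands with opposite CD45 calls were neighbours in 3 clusters, as the plot of CD45 effect by position shows. On chromosome 8, Cx3cl1 lies 20310 bases from Ccl22 and 28030 bases from Ccl17, and it was lower in CD45+ cells while both of the others were higher. On chromosome 11, Ccl11 (-7.54) lies 10298 bases from Ccl7 (1.44) and 38890 bases from Ccl12 (3.13). On chromosome 5, Cxcl5 (-6.02) lies 6893 bases from Ppbp (3.56). In the chromosome 11 cluster of Ccl5, Ccl9, Ccl6, Ccl3 and Ccl4, by contrast, all 5 ligands were higher in CD45+ cells.

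**Figure D4:**
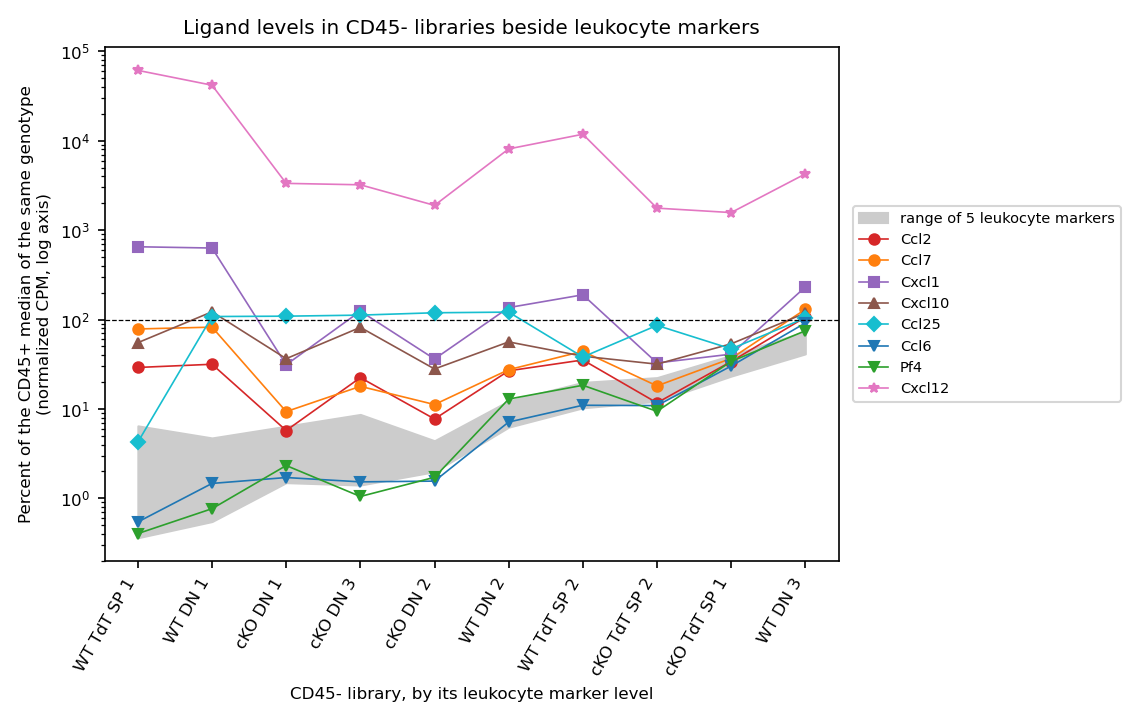
Level of 8 ligands in each CD45- library as percent of the CD45+ median of the same genotype (log axis), with libraries ordered by their leukocyte marker level and the range of 5 leukocyte markers (Ptprc, Laptm5, Coro1a, Cd52, Cd53) in grey. Ccl6 and Pf4 run along the grey range, whereas Cxcl1, Cxcl10 and Cxcl12 lie above it in all 10 libraries.

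Since CD45- libraries held leukocyte transcripts, each ligand was set beside 5 leukocyte markers as a percent of the median CD45+ level of the same genotype. The markers' median was 0.536 and 12.4% in wild type TdTOSX SP, 0.782, 8.14 and 54.7% in wild type DN, 33.2 and 16.9% in Cdh2-cKO TdTOSX SP and 1.93, 2.75 and 2.02% in Cdh2-cKO DN cells. Among the ligands higher in CD45+ cells, Cxcl16 was within or below the markers' range in 9 of 10 libraries, as were Ccl6, Ccl9, Ccl4 and Ccl17, and Pf4, Ppbp, Ccl3, Ccl22 and Ccl24 were in 8. In most CD45- libraries these 10 ligands were thus, relative to CD45+ cells, no higher than the highest of the 5 leukocyte markers. In replicate 1 of wild type TdTOSX SP and DN cells that marker was Cd53, at 6.47 and 4.74%, far above the markers' median. Cxcl16, at 4.16 and 4.56% there, was within the range through Cd53 alone, while Ccl6 was at 0.545 and 1.47%. Ccl12 and Xcl1 were above the range in 3 libraries and Cxcl2 in 4.

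The other 7 of the 20 ligands higher in CD45+ cells exceeded that range more often. Cxcl3 lay above it in 6 of 10 libraries, Ccl2 and Cxcl11 in 7, Ccl7 and Ccl5 in 8, Ccl25 in 9 and Cxcl10 in 10. Of the ligands without a CD45 call, Ccl8 was above it in 9 libraries and Cxcl1 and Cxcl9 in 10. In wild type TdTOSX SP replicate 1, where the markers were at 0.363 to 6.47%, Ccl2 stood at 29.1%, Ccl7 at 78.4% and Cxcl1 at 651% of the CD45+ median. In wild type DN replicate 1 these values were 31.6, 82.2 and 630%, with markers at 0.551 to 4.74%. In Cdh2-cKO DN replicate 2, with markers at 1.99 to 4.41%, they were lower at 7.72, 11.2 and 36.2%. The 5 markers do not measure each leukocyte type alone. Markers of mast cells, which are CD45+ leukocytes, were lower in the CD45+ libraries (3 of 4 called, median log2 fold change -3.84). Their sum was 3.2 CPM in wild type TdTOSX SP replicate 1 and 7.64 CPM in wild type DN replicate 1. It reached 265 CPM in wild type TdTOSX SP replicate 2, against at most 58.4 CPM in CD45+ libraries. Their part in the levels of Ccl2, Ccl7 and Cxcl1 was not tested.

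To see whether TdTOSX divided the ligands within a gate, TdTOSX SP cells were compared with DN cells and DP with CD45 SP cells. Within CD45- cells, 1 of 31 ligands was called, beside 2.04% of all genes. It was Ccl25, a thymic and intestinal chemokine, which was lower in TdTOSX SP cells (log2 fold change -1.57 ± 0.40, adjusted p = 0.0489) at 0.2 and 1.79 CPM in wild type and 2.24 and 4.1 CPM in Cdh2-cKO libraries. The DN libraries were at 5.09, 5.68 and 4.9 CPM in wild type and 5.2, 5.69 and 5.35 CPM in Cdh2-cKO mice, all above the TdTOSX SP libraries (3.22% of all genes lay lower without overlap). This call stood at the threshold. It was lost in 19 of 22 fits with 1 library left out, with RLE scaling factors (adjusted p = 0.0625) and once replicate numbers were fitted as a block (adjusted p = 0.0665). DESeq2 called Ccl25 and Cxcl11 (6.54% of all genes), and limma voom called Ccl25 and Cxcl16 (4.14%).

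Cxcl12, Ccl11, Cxcl13 and Cxcl5 were not called between TdTOSX SP and DN cells, with log2 differences of 0.13 ± 0.59, 0.38 ± 0.61, -0.65 ± 0.65 and 0.27 ± 0.74. In Cdh2-cKO libraries alone, 12 ligands were higher in TdTOSX SP cells (7.72% of all genes): Ccl3, Ccl4, Ccl5, Ccl6, Ccl9, Ccl12, Ccl17, Ccl22, Ccl24, Cxcl16, Pf4 and Ppbp. All 12 belong to the 20 that were higher in CD45+ cells, and Ptprc was at 160 and 86.0 CPM in these TdTOSX SP libraries against 9.8 to 16.3 CPM in DN cells. In wild type libraries alone no ligand and no gene was called by edgeR, with 4 ligands at an unadjusted p under 0.05, and 18 of the 19 CD45-high ligands with a value in both genotypes were lower in TdTOSX SP cells in sign, while 16 of them were higher in Cdh2-cKO libraries. The summed leukocyte markers were 203 and 1420 CPM in wild type TdTOSX SP against 174, 825 and 5160 CPM in wild type DN cells, and 3450 and 1590 CPM against 306 to 394 CPM in Cdh2-cKO libraries. Their part in these differences was not tested.

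Within CD45+ cells, no ligand was called between DP and CD45 SP cells by edgeR, DESeq2 or limma voom, beside 0.00666% of all genes by edgeR. At an unadjusted p under 0.05 the numbers were 0, 2 and 1, beside 3.83% of all genes by edgeR. Ccl19 aside, which had 3 counts in these libraries, the log2 differences ran from -1.52 for Ccl8 to 0.56 for Ccl20, and those of Ccl2, Ccl7 and Ccl12 were -0.08 ± 0.50, -0.13 ± 0.41 and -0.23 ± 0.78.

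Each population was also compared with the mean of the other 3. In TdTOSX SP cells 7 ligands were higher and 10 lower (22.9% and 16.3% of all genes), in DN cells 7 and 15 (28.7% and 19.4%), in DP cells 17 and 6 (20.1% and 22.7%), and in CD45 SP cells 20 and 6 (20.7% and 18.8%). The 7 ligands higher in TdTOSX SP cells, Ccl11 (5.28 ± 0.46), Cxcl13 (4.40 ± 0.49), Ccl19, Cxcl5 (4.20 ± 0.56), Cxcl12 (4.06 ± 0.44), Ccl20 (2.24 ± 0.62) and Cx3cl1 (2.21 ± 0.34), were the same 7 as in DN cells. There the log2 fold changes were 4.77 ± 0.46 for Ccl11, 5.26 ± 0.49 for Cxcl13, 3.83 ± 0.55 for Cxcl5 and 3.89 ± 0.43 for Cxcl12. The comparisons share libraries.

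Libraries labelled Cdh2-cKO were compared with wild type libraries, and by edgeR no ligand was called in any population. In TdTOSX SP cells the smallest adjusted p was 0.321, 7 ligands were higher and 5 lower at an unadjusted p under 0.05 (beside 10.6% of all genes in either direction), and DESeq2 called 0 (0.898% of all genes) with 14 at that p. The ligands with lower values in libraries labelled Cdh2-cKO were Ccl19, Cxcl5 (-3.32 ± 1.26), Cxcl12 (-3.06 ± 0.99), Cxcl14 (-2.89 ± 1.18) and Cxcl13 (-2.42 ± 1.04). Those with higher values were Ccl24 (4.6 ± 1.73), Ccl22 (3.49 ± 1.44), Ccl17 (3.43 ± 1.31), Ppbp (3.06 ± 1.04), Cxcl2 (2.18 ± 0.93), Cxcl16 (1.82 ± 0.86) and Ccl25 (1.64 ± 0.60). Groups of 2 against 2 did not overlap for 9 ligands upwards and 6 downwards, beside 21.9% and 20.2% of all genes.

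In DN cells 15 ligands had an unadjusted p under 0.05, all with lower values in libraries labelled Cdh2-cKO, beside 9.3% of all genes in either direction, and the smallest adjusted p was 0.195. The largest differences were in Ccl9 (-4.16 ± 1.13), Ccl12 (-4.01 ± 1.25), Ccl17 (-3.87 ± 1.10), Pf4 (-3.79 ± 1.22) and Ccl6 (-3.70 ± 1.11). DESeq2 called 7 ligands as lower, Ccl12, Ccl17, Ccl6, Ccl7, Ccl9, Cxcl16 and Pf4 (3.31% of all genes), and limma voom called 0 with 6 at the unadjusted p. By edgeR, 7 ligands were called once wild type DN replicate 1 was left out (4.02% of all genes lower), and 0 without wild type DN replicate 3 and CD45 SP replicate 2. In the latter fit the ligands' median difference was -1.15 and 11 had an unadjusted p under 0.05. For Cxcl16 all DN libraries labelled Cdh2-cKO, at 6.53, 12.4 and 9.08 CPM, were below the wild type ones, at 17, 28.1 and 196 CPM, as 4 ligands were beside 4.43% of all genes.

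The log2 difference of Ptprc between genotypes was 1.64 ± 1.27 in TdTOSX SP cells and -3.36 ± 1.11 in DN cells (adjusted p of 0.661 and 0.219 by edgeR). Of the 20 ligands higher in CD45+ cells, 17 were above 0 in TdTOSX SP cells (median 1.74) and 19 below 0 in DN cells (median -2.47). All 8 ligands lower in CD45+ cells were below 0 in TdTOSX SP cells (median -2.66) and 6 of them in DN cells (median -1.32). The difference between these genotype effects, a comparison added after the data were seen, gave 0 calls by edgeR (smallest adjusted p = 0.13, 13 at an unadjusted p under 0.05, 9.89% of all genes) and 9 by DESeq2 (3.68% of all genes higher). The difference of Ptprc was 4.99 ± 1.71. In TdTOSX SP cells 0 of 5 fibroblast and 0 of 4 pericyte markers were above 0 (median -1.21 and -0.92), and 5 of 5 epithelial markers were (median 3.29), with none called. In DN cells 1, 3 and 3 were above 0 (median -0.28, 0.23 and 0.89). Of the 5 epithelial markers, 2 (Cdh1 and Epcam) were called higher and 2 lower in CD45+ than in CD45- cells, so this list does not follow epithelial cells alone. The part of these cell types and of leukocyte transcripts in the genotype differences was not tested.

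**Figure D5:**
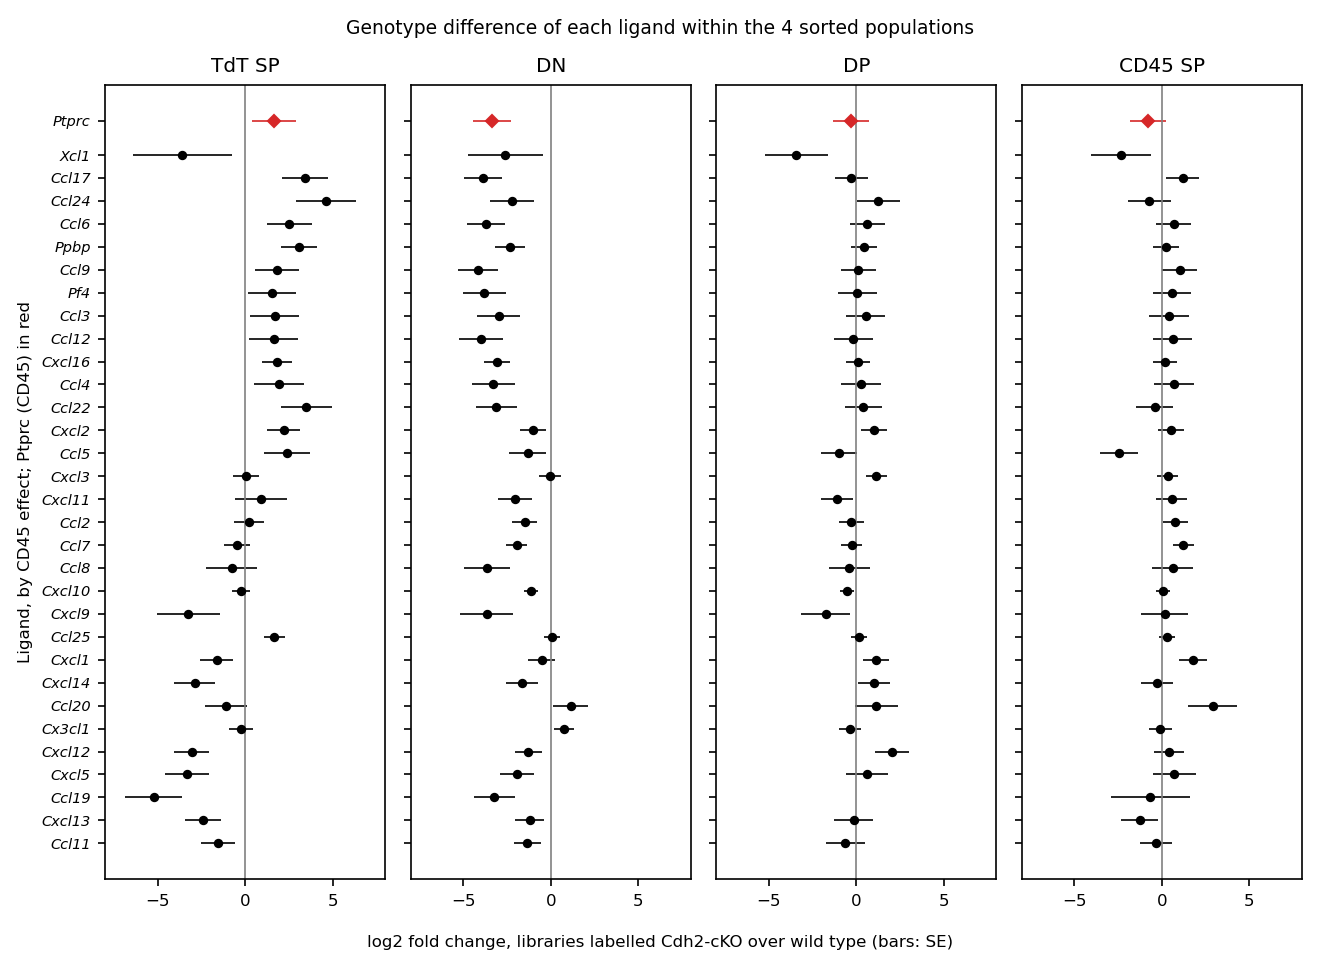
Log2 fold change of libraries labelled Cdh2-cKO over wild type for each tested ligand within the 4 populations (points with SE bars), with ligands ordered by their CD45 effect from the foot upwards and Ptprc in red at the top. In the TdTOSX SP panel the 8 ligands lower in CD45+ cells lie below 0 and 17 of the 20 higher ones above 0, whereas in the DN panel 28 of 31 ligands lie below 0.

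Neither CD45+ population gave a genotype call, and the plot of genotype differences shows their values in panels of their own. Without overlap between genotypes, 4 ligands were higher in DP cells labelled Cdh2-cKO (Ccl6, Cxcl2, Cxcl3 and Cxcl12, beside 6.81% of all genes) and 1 was lower (Cxcl10, beside 6.27%). In CD45 SP cells 4 were higher (Ccl7, Ccl9, Ccl17 and Ccl20, beside 5.27% of all genes) and 0 lower (4.96%). Those of Ccl20 and Cxcl12 rest on few counts. Ccl20 had 0, 1 and 1 counts in wild type and 3, 5 and 7 in Cdh2-cKO CD45 SP libraries. Cxcl12 had 3, 7 and 11 counts in wild type and 13, 15 and 59 in Cdh2-cKO DP libraries. In DP cells 0 ligands were called and 0 had an unadjusted p under 0.05 (3.45% of all genes), with 1 at that p by DESeq2, which called 0 (0.0067% of all genes), and 2 by limma voom, which called 0. In CD45 SP cells 0 were called by edgeR, by DESeq2 (0.174% of all genes) and by limma voom, and by edgeR Ccl5 (-2.44 ± 1.07) and Cxcl1 (1.77 ± 0.79) had an unadjusted p under 0.05, beside 8.93% of all genes. The Ccl5 value was 803 CPM in wild type CD45 SP replicate 2 and at most 74.9 CPM in the other 5 CD45 SP libraries. Over all 4 populations 0 were called, and Xcl1 (-2.99 ± 1.07), Cxcl9 (-2.13 ± 0.75), Cxcl13 (-1.26 ± 0.50) and Cxcl10 (-0.47 ± 0.22) had an unadjusted p under 0.05 (11.4% of all genes).

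Whether the CD45 effect differed between genotypes was tested directly. By edgeR 0 of 31 ligands were called, and 5 had an unadjusted p under 0.05 (7.82% of all genes): Cxcl12 (3.39 ± 0.89, adjusted p = 0.503), Cxcl5 (3.30 ± 1.16), Cxcl14 (2.64 ± 0.98), Cxcl1 (2.52 ± 0.83) and Ccl7 (1.69 ± 0.62). DESeq2 called Cxcl12 alone (0.0737% of all genes higher). Within each genotype the CD45 effect on Cxcl12 was -7.66 ± 0.85 in wild type and -4.31 ± 0.40 in Cdh2-cKO libraries, with adjusted p of 0.000127 and 2.72e-06. Wild type replicate 1 of TdTOSX SP and DN cells was at 370 and 252 CPM. The other wild type CD45- libraries were at 25.7 to 71.3 CPM and the Cdh2-cKO ones at 24.9 to 52.9 CPM. The part of replicate 1 in this difference was not tested. Cxcl1 was at -1.71 ± 0.62 in wild type and 0.78 ± 0.44 in Cdh2-cKO libraries, neither of which was called (adjusted p of 0.053 and 0.149).

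The receptors of these ligands were examined as 18 signalling and 5 atypical or scavenging receptors. Of the 16 signalling receptors that passed the filter, 15 were higher in CD45+ cells and 0 lower by edgeR, beside 31.2% and 32.1% of all genes, with a median log2 fold change of 3.51. Ccr2, the receptor of Ccl2, Ccl7 and Ccl12, was at 402 to 1920 CPM in CD45+ libraries (3.99 ± 0.66, adjusted p = 4.85e-05), and Cxcr4, the receptor of Cxcl12, at 25.6 to 115 CPM (2.96 ± 0.40, adjusted p = 6.58e-06). Ccr2 was at 3.6 to 788 CPM in CD45- libraries, and its lowest and highest values were those of wild type TdTOSX SP replicate 1 and DN replicate 3, as for Ptprc. Cxcr6, the receptor of Cxcl16, was the 1 tested signalling receptor without a call (0.86 ± 0.64, adjusted p = 0.25).

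The atypical receptors, which bind chemokines without classical signalling, went mostly the other way. Ackr1 (-6.33 ± 0.61), Ackr2 (-4.94 ± 0.60), Ackr4 (-3.60 ± 0.91) and Ackr3 (-2.69 ± 0.23) were lower in CD45+ cells, and Ccrl2 was higher (2.97 ± 0.41). Ackr3, which scavenges Cxcl12, was at 108 to 263 CPM in CD45- libraries and 16 to 48.2 CPM in CD45+ libraries, without overlap (adjusted p = 3.32e-08). Ackr1 and Ackr2 did not exceed 8.55 CPM in any library. No receptor of the 21 tested was called by edgeR between TdTOSX+ and TdTOSX- cells or between genotypes, and at an unadjusted p under 0.05 there were 2 within CD45- and 2 within CD45+ cells, beside 19.4% and 3.83% of all genes. For genotype the numbers at that p were 7 in TdTOSX SP, 3 in DP, 8 in CD45 SP and 7 in DN cells, beside 10.6%, 3.45%, 8.93% and 9.3% of all genes.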

How the data were processed

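Libraries had been prepared from amplified cDNA (SMARTer) and sequenced single end. Per the labels, the authors aligned reads with STAR 2.0.4b to GRCm38 and featureCounts 1.45 assigned them to Ensembl genes. The counts deposited by the authors are raw. The CPM and RPKM they deposited served to check the counts alone (largest relative deviation 5.11e-14). Counting without strand cannot separate a gene from an antisense partner, and the strand setting is not given in the sources used here.

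The 355 rRNA genes were excluded, and a gene had to exceed 1 CPM in 2 or more libraries. edgeR 4.0.16 (R 4.3.3) fitted 1 mean per population and genotype with TMM factors and a quasi-likelihood test. A call required an adjusted p (Benjamini-Hochberg, over all genes) no higher than 0.05 in edgeR. Normalized CPM use the TMM-scaled library size. DESeq2 1.42.0 and voomWithQualityWeights of limma 3.58.1 were alternatives. Shares of all genes at an unadjusted p were taken for edgeR over all libraries alone. Counts of ligands at that p from other fits therefore have no share beside them. The fit was tested on simulated data. With 3 counts as the smallest signal taken as present, the floor was 0.1 to 0.2 CPM per library, and floors cover counting error only.

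Values per library were given for ligands called in a genotype or TdTOSX contrast, among the 3 highest on the RPKM scale in a population, or among the 5 largest called CD45 fold changes in either direction. The library values of Cxcl9, Cxcl16, Ccl5, Cx3cl1, Pf4 and the atypical receptors were chosen after they were seen. The members and lists were chosen with earlier results of these data known.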

Additional observations from a re-analysis of the deposited data

How the results depend on the processing

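Values here are numbers of the 31 ligands called. Where no share of all genes is given beside them, a change in ligand calls cannot be told from a change over all genes. Of 3736 alternatives for single ligands, 3435 kept direction and side of the threshold, 298 kept direction only and 3 reversed: Cxcl16 in TdTOSX SP against the rest (0.16 in Cdh2-cKO libraries alone), and Ccl7 in CD45 SP (-0.02) and Ccl17 in DN against the rest (0.15) in wild type alone. The CD45 comparison gave 16 in wild type libraries alone, and each population against the rest then gave 9 (TdTOSX SP), 3 (DP), 6 (CD45 SP) and 5 (DN). In Cdh2-cKO libraries alone TdTOSX SP against the rest gave 5. With a log2 fold change of at least 2 as well, DP gave 15 and CD45 SP 16.

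Within CD45- cells the 1 call became 0 in wild type alone, without the filter, with RLE factors (adjusted p = 0.0625), with the log2 threshold and without wild type DN replicate 3 and Cdh2-cKO TdTOSX SP replicate 1 (chosen after seeing the data), 2 by DESeq2 or voom, 5 without wild type CD45 SP replicate 2 and DN replicate 3, and 12 in Cdh2-cKO alone. The share of all genes called was 2.04% in the reported fit, 6.54% by DESeq2, 4.14% by voom, 9.46% without both of those libraries, 5.37% without wild type DN replicate 3 and 8.1% in Cdh2-cKO alone. With the replicate number as a block it was 0 (Ccl25, adjusted p = 0.0665), and the labels tie the numbers to no animal or day: 30 same-numbered pairs correlated at -0.297 to 0.595 (median 0.0523), and 12 of 22 libraries correlated best with their own number. Ddx3y exceeded 1 CPM in all 4 wild type replicate 1 libraries, wild type CD45 SP replicate 2, 3 of 4 Cdh2-cKO replicate 2 libraries and no replicate 3, a hint from the data, not the design, of shared animals. By DESeq2 the genotype gave 7 in DN, its CD45 difference 1 and the TdTOSX SP against DN difference 9; without the filter the last gave 3.

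With 1 library left out, the ranges were 27 to 28 (CD45), 9 to 20 (TdTOSX SP), 19 to 25 (DP), 22 to 27 (CD45 SP), 20 to 25 (DN), 0 to 3 (within CD45-), 0 to 0 (within CD45+), and for genotype 0 to 1 (TdTOSX SP), 0 to 0 (DP), 0 to 0 (CD45 SP), 0 to 7 (DN), 0 to 1 (over 4 populations), 0 to 0 (CD45 difference) and 0 to 10 (TdTOSX SP against DN). The libraries behind these were wild type DN replicate 1 (7 in DN and 9 in the last), wild type TdTOSX SP replicate 2 (Ccl25 in TdTOSX SP and over 4 populations, 10 in the last), wild type DN replicate 3 (3 within CD45-), and wild type TdTOSX SP replicate 1 and Cdh2-cKO TdTOSX SP replicate 2 (10 and 9 in TdTOSX SP against the rest). Groups of 2 or 3 libraries limit the genotype tests, and ligands under 1 CPM rest on few counts.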

Other observations

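Chemokine ligand genes outside the 33 were low or absent. Ccl1, a Ccr8 ligand, reached 7.72 CPM in wild type CD45 SP replicate 2 and at most 3.96 CPM elsewhere. Ccl27a, a skin chemokine, was at 0.402 to 2.05 CPM in CD45- and 0.228 to 0.585 CPM in CD45+ libraries. Ccl21a, Ccl21b and Ccl27b are listed with 0 counts in all 22 libraries; near-identical copies of them exist in the mouse genome, and reads that align to several places were not counted.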
